A study of Mus musculus with 39 samples.

Results

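The genes described here encode the proteins of the cytosolic ribosome. They were taken by symbol: the numbered Rpl and Rps names, together with Rplp0, Rplp1, Rplp2 and Rpsa, with a mean of at least 1 TPM (a gene's share of a library's transcripts, corrected for length) in either table. Of 28023 gene entries in each table, 88 had such a symbol and 84 passed that level, 50 named for the large (60S) subunit and 34 for the small (40S) subunit. The entries left out were Rpl3l, Rpl10l, Rps12 and Rps27. Of the 84, 75 encode proteins of the standard ribosome, 4 encode protein-coding paralogues (Rpl7l1, Rpl22l1, Rpl39l and Rps27l), and 5 are annotated as pseudogenes (Rpl6l, Rps3a2, Rps3a3, Rps4l and Rps12l1).

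The libraries came from wild-type (WT) C57BL/6 mice, an inbred strain, that received faecal microbiota transplants (FMT) of stool labelled HV, treated for 6 days with CZA alone or with CZA plus DAV132, an adsorbent that acts in the colon. HV and CZA are given by the labels as abbreviations. All mice then received MCA-205 fibrosarcoma cells under the skin, and either an isotype antibody or anti-PD-1, which keeps the checkpoint receptor PD-1 on T cells from being engaged, in 4 injections of 250 µg. There were 20 libraries of sorted CD8+ T cells, 5 in each combination of FMT arm and antibody, and 19 libraries labelled bulk tumour, 5 in each combination except 4 for CZA+DAV132 with isotype. All groups, the isotype groups included, thus carry a transplant and a tumour, and none is untreated.

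A cytosolic ribosome joins a small subunit, which reads the messenger RNA, to a large subunit, which makes the peptide bond, and it holds a copy of nearly every ribosomal protein. The messages of these proteins are among the most abundant in dividing cells, and most begin with a run of pyrimidines, the 5' TOP motif, through which mTORC1 and LARP1 control their translation. CD8+ T cells make more ribosomes when they are activated, because their growth and clonal expansion need protein synthesis.

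Libraries that stood apart bear on what follows, since TPM is a share of each library. Entries made of satellite or simple repeats took 69.2% of the TPM in CD8-19 and 28.1% in CD8-16, both of CZA+DAV132 with anti-PD-1, against 0.351% to 25.3% in the other 18 CD8 libraries. In the CZA+DAV132 arm these entries separated the CD8 groups, with 11.7% to 69.2% under anti-PD-1 and 2.33% to 8.42% under isotype. They took 50.5% in library T-026, of CZA+DAV132 with anti-PD-1, 13.9% in T-985, of CZA with isotype, and at most 0.817% in the other bulk tumour libraries. Mitochondrial transcripts took 15.8% in CD8-16 and 10.5% in T-023, the latter again of CZA+DAV132 with anti-PD-1. Among CD8 libraries of that arm they took 1.33% to 15.8% (median 6.04%) with anti-PD-1 and 3.98% to 5.14% (median 4.90%) with isotype. The libraries labelled bulk tumour had a median of 419 TPM of Cd3e and 13.0 TPM of the collagen gene Col1a1, against 750 and 3.39 TPM in the sorted set. Summed over 14 fibroblast and fibrosarcoma markers, they held 7.91 to 1934 TPM, and over 14 T cell markers 4667 to 14863 TPM. The T cell marker sum was thus far above the stromal one in most of them. Such sums depend on the markers chosen and do not measure the share of RNA from each cell type. In these mixed RNA samples, fewer cells of a type and less RNA per cell cannot be told apart.

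Some ribosomal protein genes cannot be read from their own entry, and a pair of coding sequences is printed to show it. Rps27 (ENSMUSG00000090733, GRCm38 chr3:90212522-90213651, minus strand) is listed at 0 in every library, while Rps27rt (ENSMUSG00000050621, GRCm38 chr9:114982366-114982739, minus strand), an intronless copy, has a mean of 5023 TPM in the CD8 set and 4716 TPM in the bulk tumour set. Over the 252 coding bases that were compared, 0 bases differ between them, and with no mismatch there are no capitals to mark:
Rps27: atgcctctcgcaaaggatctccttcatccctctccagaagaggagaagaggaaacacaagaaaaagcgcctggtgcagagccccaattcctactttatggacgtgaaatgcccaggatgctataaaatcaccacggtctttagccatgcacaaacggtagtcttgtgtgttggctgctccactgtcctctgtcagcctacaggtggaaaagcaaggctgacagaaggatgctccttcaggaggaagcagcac
Rps27rt: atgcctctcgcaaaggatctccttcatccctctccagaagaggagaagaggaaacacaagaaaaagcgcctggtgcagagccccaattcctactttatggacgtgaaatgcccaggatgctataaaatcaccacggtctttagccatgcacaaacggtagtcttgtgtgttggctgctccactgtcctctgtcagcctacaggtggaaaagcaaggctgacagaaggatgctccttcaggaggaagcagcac

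Reads from such a stretch match both entries, and kallisto, named in the submitters' processing notes, divides them between entries by likelihood. Of the 79 protein-coding members, 75 shared at least 20% of their coding 31-base words with another annotated gene, and 23 had no word of their own. In the CD8 set 19 of the 79 had under 50% of the summed TPM of such a family on their own entry, and in the bulk tumour set 16 did. Rpl5, which binds 5S rRNA, had a mean of 32.6 TPM on its entry in the CD8 set against 1126 TPM on Gm15500, a processed pseudogene that holds all of its coding words. Rps12 is listed at 0 in every library, and the entries that share its sequence sum to a mean of 1868 TPM in the CD8 set and 2970 TPM in the bulk tumour set. Rps16 has 0 differences over 438 coding bases from Rps16-ps2, and held 10.9% of its family's TPM in the sorted set against 76.3% in the libraries labelled bulk tumour.

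**Figure D1:**
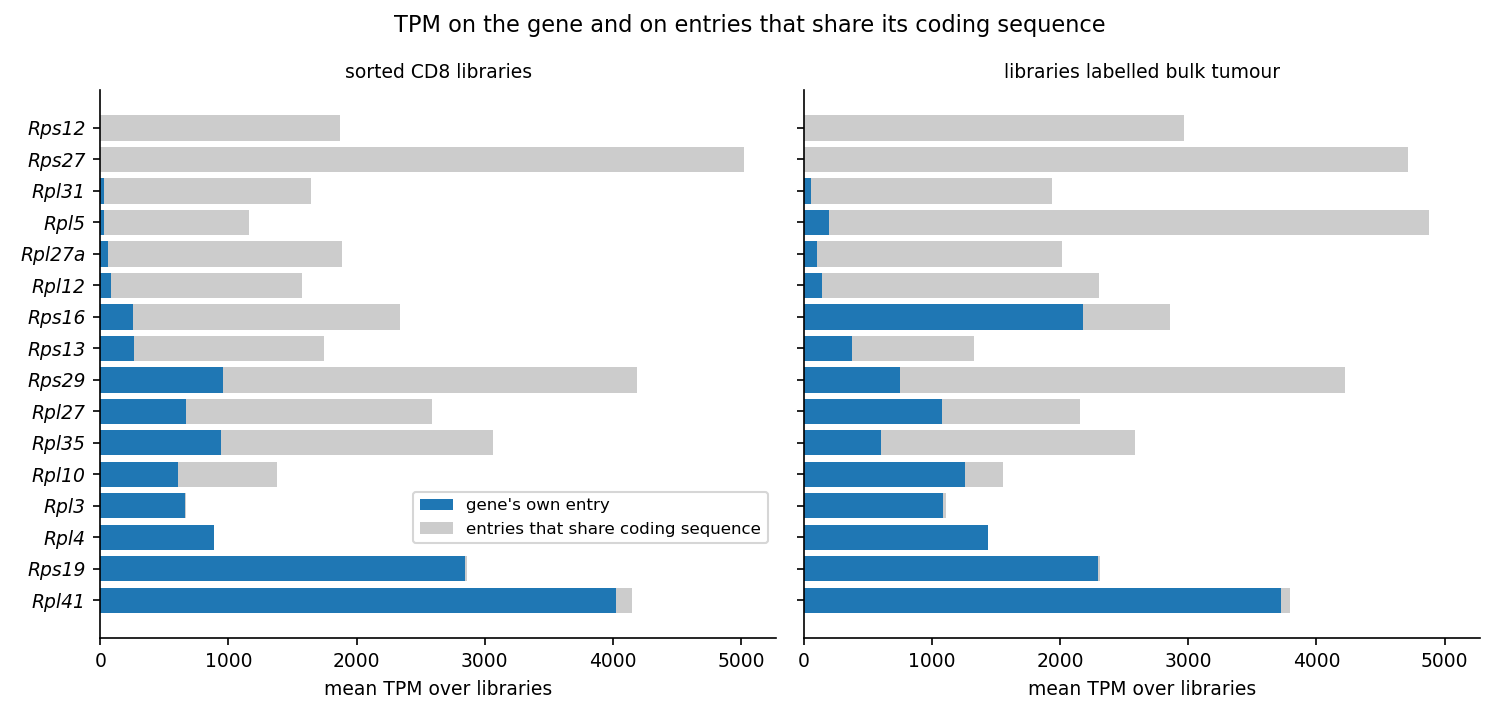
Mean TPM over the libraries of each set (horizontal axis) for 16 genes, on the gene's own entry (blue) and on entries that share at least 20% of its coding 31-base words (grey). Rps12 and Rps27 have no TPM of their own, Rps16 changes from mostly grey in the CD8 set to mostly blue in the bulk tumour set, and Rpl3, Rpl4, Rps19 and Rpl41 lie almost wholly on their own entries.

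The start sites of members with a RefSeq promoter entry (GRCm38.p6) were read for pyrimidine runs. The windows below run from 30 bases before to 20 bases after the annotated start, on the gene's own strand, and capitals mark the longest run of C and T. They belong to members that the results below turn on, to Rps18, among the most abundant, and to Rps6, whose protein is a substrate of S6 kinase.
Rpl4 (chr9:64173357-64173406): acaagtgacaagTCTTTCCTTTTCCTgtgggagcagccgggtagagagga
Rpl6 (chr5:121204471-121204520): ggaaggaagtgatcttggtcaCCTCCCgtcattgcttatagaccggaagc
Rpl35 (chr2:39005112-39005161): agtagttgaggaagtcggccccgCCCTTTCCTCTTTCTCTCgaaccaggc
Rpl41 (chr10:128549149-128549198): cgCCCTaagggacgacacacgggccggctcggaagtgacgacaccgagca
Rps6 (chr4:86857348-86857397): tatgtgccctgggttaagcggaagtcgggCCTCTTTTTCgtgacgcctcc
Rps18 (chr17:33955646-33955695): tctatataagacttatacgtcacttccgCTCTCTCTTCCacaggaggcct
Rps19 (chr7:24884562-24884611): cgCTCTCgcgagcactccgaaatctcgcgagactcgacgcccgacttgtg
Rps25 (chr9:44407684-44407733): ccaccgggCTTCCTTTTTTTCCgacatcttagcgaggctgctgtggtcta

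Of the 79 protein-coding members, 59 had a promoter entry, and the most upstream start was used where a gene had several. A run of at least 8 pyrimidines lay in the 50-base window of 28 of the 59 (47.5%), against 19.9% of 27025 gene promoters. A C at the annotated start followed by at least 4 more pyrimidines, the form of the TOP motif, was found in 11 members (18.6%) and in 2.48% of all promoters. The motif CCGGAAG, the core bound by ETS factors such as GABP, was found on either strand of the 300-base promoter of 25 members (42.4%), against 9.14% of all. TATAAA on the gene's strand was found in 6 (10.2%, against 8.88%). These are matches of letters around annotated starts. The most upstream start need not be the one most used, so a window without a run does not show that the message lacks one. Of the 19 members with an entry that were called lower in the CD8 set below, 10 had the run of at least 8, and of the other 40, 18 did.

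The levels of the members, read on their own entries, covered a wide range. In the CD8 set 74 of the 84 had a mean above 100 TPM and 44 above 1000 TPM. Rpl32 was the highest with a mean of 5337 TPM, followed by Rpl13a with 4084 TPM, and among the next were Rpl41 with 4021 and Rpl13 with 3235 TPM. In the bulk tumour set 77 were above 100 TPM and 56 above 1000 TPM, led by Rpl13a with 5762, Rpl23 with 5662, Rpl41 with 3726 and Rps18 with 3555 TPM. The lowest protein-coding members were Rpl39l, a paralogue of Rpl39 best known from testis, with means of 3.84 and 1.32 TPM, and Rpl7l1 with 22.9 and 18.8 TPM. TPM is a level per length, but this order is one of entries, since copies hold much of the TPM of some genes. Summed with copies, Rps27, which is no member, had 5023 TPM, Rps29 4186 and Rpl13a 4167 TPM in the CD8 set. In the bulk tumour set such sums were 4879 TPM for Rpl5, 4717 for Rps27 and 4222 for Rps29, against 3792 for Rpl41. The sets were also tabulated separately. Across the 84 members the mean levels of the sets had a Spearman rho of 0.84, a description over genes that share libraries.

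Members varied less around each other than in TPM. Within a group, the coefficient of variation (CV, the SD over the mean) of a standard member's TPM had a median of 18.5% in the CD8 set and 20.8% in the bulk tumour set. When each value was first divided by the library's summed TPM of the standard members, the medians were 8.51% and 12.8%. This division takes out any spread that the members share, such as that from repeat entries. No other set of genes was treated alike for comparison. The steadiest by this measure was Rpl23a in the CD8 set, with a CV of 3.74%. The least steady was Rps16 there, with 89.9%, whose own entry ran from 11.2 to 851 TPM while the sum with its copies ran from 524 to 3163 TPM.

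Summed over the 84 genes, ribosomal protein messages took between 2.37% and 16.1% of a library's TPM. In CZA+DAV132 with anti-PD-1, the CD8 libraries held 7.00%, 8.41%, 9.38%, 2.37% and 10.7% (mean 7.58% ± 3.22, SD, n = 5). The 5 libraries of CZA+DAV132 with isotype held 11.3%, 11.9%, 13.5%, 11.8% and 11.1% (11.9% ± 0.94), all above those of the anti-PD-1 group. CZA with isotype had 10.8% ± 2.11 and CZA with anti-PD-1 had 10.4% ± 1.22 (SD, n = 5 each), and these groups overlapped all others. These shares are of the full TPM scale, of which the listed entries of a library hold 95.7% to 98.9% in the CD8 set and 97.0% to 99.1% in the other. As a share of the listed TPM left without 19 repeat and 13 mitochondrial entries, the mean of CZA+DAV132 with anti-PD-1 was 12.0% ± 2.12 against 13.4% ± 1.09 with isotype, and the groups overlapped. CD8-19 stood at 8.36% and its group's other libraries at 12.2% to 13.5%, while the isotype libraries ran from 12.2% to 14.8%.

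In the bulk tumour set, CZA+DAV132 with anti-PD-1 held 10.6%, 10.0%, 5.16%, 13.4% and 12.4% (10.3% ± 3.18, SD, n = 5), and with isotype 13.8%, 14.1%, 11.0% and 15.7% (13.7% ± 1.92, n = 4). The CZA groups held 12.7% ± 1.13 with isotype and 13.0% ± 1.84 with anti-PD-1 (n = 5 each). All 4 groups overlapped. Of the listed TPM left without repeat and mitochondrial entries, the CZA+DAV132 groups held 12.5% ± 1.38 with anti-PD-1 and 14.8% ± 2.08 with isotype. The actin gene Actb stays in that TPM and alone took 3.66% to 17.1% of the full scale in these libraries. Its means were 7.17% in CZA+DAV132 with anti-PD-1 and 12.7% with isotype, and its part in the shares was not tested. The ratio of small to large subunit TPM had group means between 0.66 and 0.71 in both sets.

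**Figure D2:**
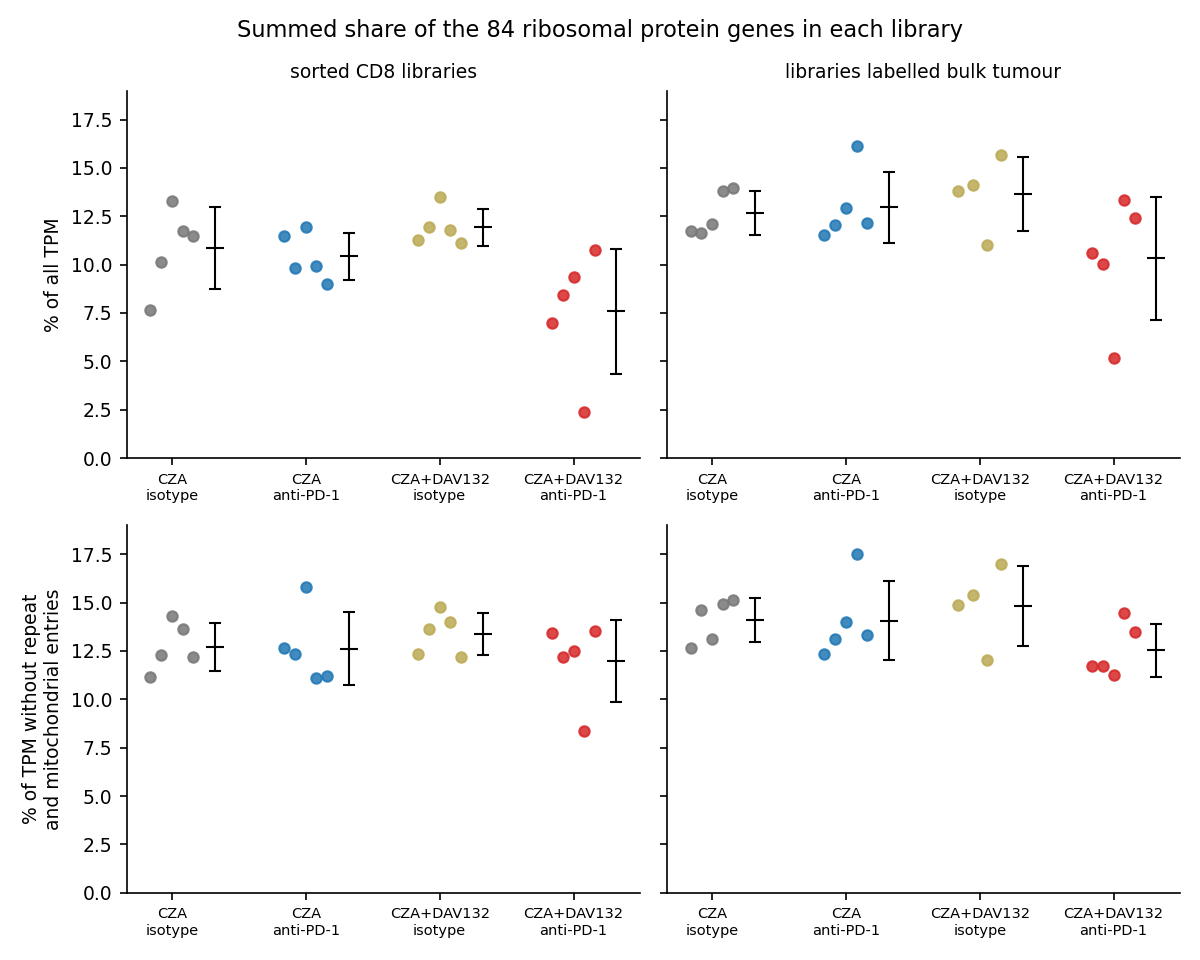
Summed TPM of the 84 ribosomal protein genes in each library as a percent of the full TPM scale (top) and of the listed TPM left without repeat and mitochondrial entries (bottom). Points are libraries, and the black bars give the mean ± SD of each group. The low points of CZA+DAV132 with anti-PD-1 (red) at 2.37% and 5.16% in the top row move up to 8.36% and 11.3% in the bottom row.

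The comparison of anti-PD-1 with isotype asks whether the antibody changed ribosomal protein messages in each FMT arm. Among sorted CD8+ libraries of the CZA+DAV132 arm, 29 of the 84 genes were lower with anti-PD-1 and 0 were higher (limma, adjusted p under 0.05). Rps19, Rps27a, Rpl3, Rpl41 and Rpl9 had the 5 largest changes among the genes called, with TPM lower by 1.17 to 1.51 on the log2(TPM + 1) scale. Lower values were common among all genes in this comparison, where 19.4% of 12942 genes were called lower and 4.12% higher, and the median of all genes was -0.34 against -0.75 for the members. Of the members, 34.5% were called lower. At an unadjusted p under 0.05, 57 were lower, against 30.8% of genes, and 0 higher, against 6.13%.

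Rps19, a small subunit protein and the gene most often mutated in Diamond-Blackfan anaemia, had 3065, 3431, 3973, 3378 and 3667 TPM with isotype and 1198, 1610, 1884, 537 and 2393 TPM with anti-PD-1. The groups did not overlap, and CD8-19 was the lowest. The log2 change was -1.36 (SE 0.30, adjusted p = 0.0081). Rps27a, which encodes ubiquitin fused to a small subunit protein, had 1299, 1314, 1620, 1051 and 1367 TPM with isotype and 575, 555, 619, 160 and 661 TPM with anti-PD-1. Its 4 anti-PD-1 libraries other than CD8-19 lay close together and well under the isotype values. The log2 change was -1.51 (SE 0.35, adjusted p = 0.0085), but Rps27a has no coding word of its own.

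Rpl3, a large subunit protein next to the site of peptide bond formation, had 655, 782, 848, 830 and 776 TPM with isotype and 251, 355, 487, 159 and 539 TPM with anti-PD-1, a log2 change of -1.24 (SE 0.30, adjusted p = 0.0090). Rpl4, which reaches into the exit tunnel of the nascent chain, went from 920, 1004, 1087, 1010 and 1034 TPM to 394, 586, 667, 221 and 747 TPM (-1.07, SE 0.28, adjusted p = 0.013). Neither gene's groups overlapped, and the isotype libraries of both were tightly grouped. Rpl41, the shortest ribosomal protein, had 4724, 5222, 6177, 4281 and 5489 TPM with isotype and 2398, 2417, 3054, 759 and 3175 TPM with anti-PD-1 (-1.28, SE 0.32, adjusted p = 0.010). Again no anti-PD-1 library reached the isotype range.

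Calls were spread over the structure of the ribosome. They were made for 15 of 50 large subunit and 14 of 34 small subunit genes. Of the P stalk, which recruits elongation factors, Rplp0 was called (-0.96, adjusted p = 0.020), while Rplp1 stood at -0.65 (adjusted p = 0.14) and Rplp2 at -0.82 (adjusted p = 0.054). Of 10 proteins at the exit tunnel 5 were called (50%), with a list median of -0.83, and of 9 at the decoding site and the path of the messenger RNA 4 were (44.4%), with a median of -0.74, against 34.5% of all members and 19.4% of all genes. Of the pair that binds 5S rRNA and can inhibit Mdm2, neither was called on its own entry. Rpl11 stood at -0.71 (adjusted p = 0.12) and Rpl5 at -0.08 (adjusted p = 0.89). These entries held 23.3% (Rpl11) and 2.8% (Rpl5) of their families' TPM in this set. Summed with its copies, Rpl11 had means of 1111 TPM with anti-PD-1 and 1626 TPM with isotype. Of 17 members mutated in Diamond-Blackfan anaemia 6 were called (35.3%), a share near that of all members. Among paralogues, Rpl22l1 (-1.14, adjusted p = 0.016) and Rps27l (-1.13, adjusted p = 0.018), a p53 target, were called, while Rpl22 itself stood at -0.56 (adjusted p = 0.21).

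Of the 84 changes, 83 were below 0, against 75.8% of all genes tested, and 34 members were lower without overlap between the groups, against 12.1% of all genes. None was higher without overlap, against 2.85%. Rps16 was the exception, at 0.84 (SE 1.03, adjusted p = 0.59). Its entry held 135, 131, 223, 181 and 41.0 TPM with isotype and 654, 226, 445, 11.2 and 713 TPM with anti-PD-1. Rps16-ps2 held 2446, 2646, 2833, 2447 and 2557 TPM with isotype and 830, 1522, 1546, 512 and 1705 TPM with anti-PD-1, lower in all 5 anti-PD-1 libraries than in any isotype library. Summed with its copies, Rps16 stood at -0.90 (adjusted p = 0.035). Rpl5 summed with its copies had means of 779 TPM with anti-PD-1 and 1401 TPM with isotype (adjusted p = 0.017). With each protein-coding member summed with its copies, which can include members annotated as pseudogenes, 39 members were called lower. Of the genes then tested, 19.9% were. On their own entries, 13 of the 22 members with at least 20% of their coding words unique were called (59.1%), with a median of -0.96. Of the 57 members under 20%, 16 were called, with a median of -0.74, where 19.4% of all genes were called lower.

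The size of the fall differed with what the TPM was a share of. With repeat and mitochondrial entries taken out and the rest rescaled, the members' median was -0.11 against 0.13 for all genes, 21 of 84 were called lower, against 7.63% of genes, and 0 higher. Rps19 stood at -0.72 (adjusted p = 0.0030) and Rpl3 at -0.60 (adjusted p = 0.010) on that scale, and with median-ratio scaling at -0.88 (adjusted p = 0.000722) and -0.76 (adjusted p = 0.0023). Median-ratio scaling put the members' median at -0.27 and that of all genes at 0.00, with 27 members and 14.3% of genes called lower. Without CD8-16 and CD8-19 there were 10 calls, against 5.2% of genes called lower, and a median of -0.28. Leaving the CZA groups out of the model gave 3 calls, a share below the 6.6% of all genes called lower. Leaving out CD8-13 gave 19 calls (13.4% of genes), CD8-16 17 calls (11.5%), and CD8-20 53 calls (29.8%). In these groups, endothelial markers summed to 432 to 2468 TPM with anti-PD-1 and 217 to 382 TPM with isotype. Macrophage and monocyte markers summed to 56.4 to 294 TPM and 76.8 to 776 TPM, and T cell markers to 3987 to 13162 TPM and 10816 to 14383 TPM. Of the 6 endothelial markers, 2 had a median of 0 in the CD8 set. Over the whole set their sum ran from 187 to 2468 TPM and Pecam1 alone from 186 to 2467 TPM, so it reads mainly Pecam1. The part of these markers in the result was not tested.

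**Figure D3:**
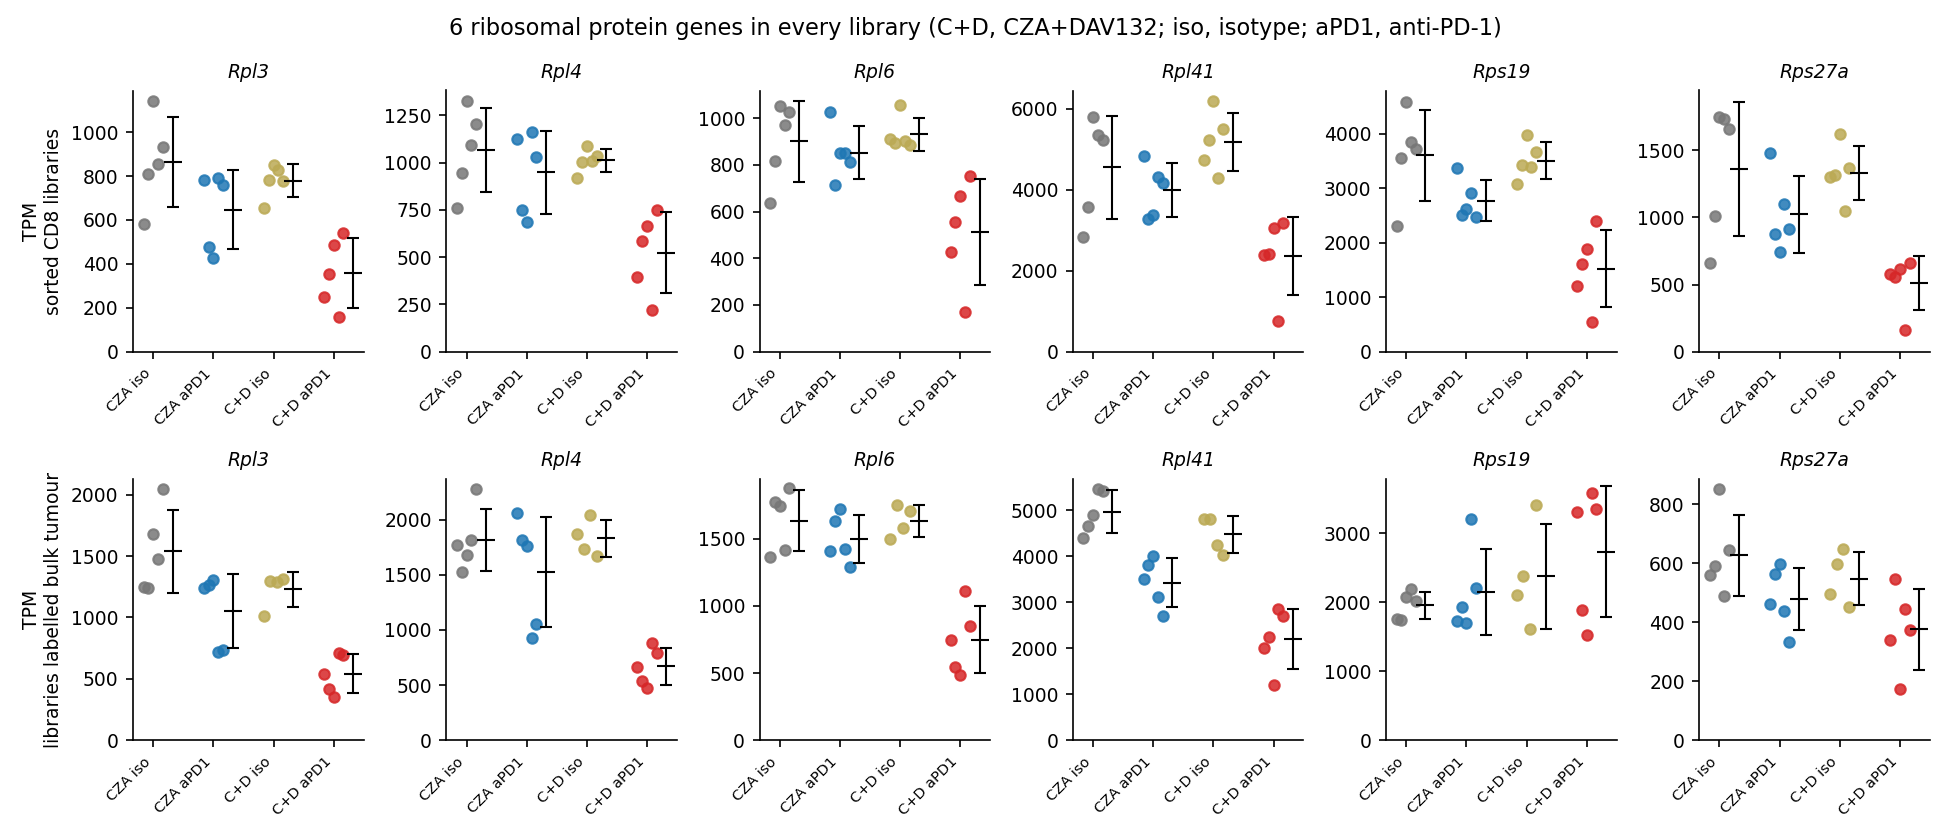
TPM of Rpl3, Rpl4, Rpl6, Rpl41, Rps19 and Rps27a (linear vertical axes from 0) in every library of the CD8 set (top) and of the libraries labelled bulk tumour (bottom), with the mean ± SD of each group in black. In both sets the CZA+DAV132 anti-PD-1 libraries (red) lie below the CZA+DAV132 isotype libraries (ochre) for Rpl3, Rpl4, Rpl6 and Rpl41, while Rps19 is lower in the CD8 set and overlaps in the other.

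In the libraries labelled bulk tumour the same comparison in the CZA+DAV132 arm gave 6 lower members and 0 higher, against 0.21% of 13326 genes called lower and 0.03% called higher. They were Rps12l1, Rpl4, Rps25, Rpl3, Rpl6 and Rpl41. Rpl4 had 1866, 1735, 2047 and 1675 TPM with isotype and 660, 539, 473, 880 and 795 TPM with anti-PD-1, a log2 change of -1.48 (SE 0.24, adjusted p = 0.018). Rpl6, a large subunit protein, had 1495, 1754, 1577 and 1704 TPM against 749, 548, 487, 1108 and 848 TPM (-1.19, SE 0.21, adjusted p = 0.021). The groups of both genes lay apart, and the low values were not limited to T-026.

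Rpl41 had 4805, 4814, 4235 and 4030 TPM with isotype and 1994, 2231, 1202, 2847 and 2692 TPM with anti-PD-1 (-1.08, SE 0.21, adjusted p = 0.028). Rpl3 had 1010, 1301, 1290 and 1311 TPM against 536, 419, 350, 712 and 695 TPM (-1.22, SE 0.25, adjusted p = 0.048), and Rps25, a small subunit protein used in internal initiation, went from 2601, 2503, 2913 and 2789 TPM to 1101, 656, 719, 2030 and 1567 TPM (-1.29, SE 0.26, adjusted p = 0.045). Rps12l1 had 777, 1316, 1032 and 1344 TPM with isotype and 209, 253, 66.7, 546 and 172 TPM with anti-PD-1, a change of -2.43 (SE 0.46, adjusted p = 0.027). It is an annotated pseudogene that holds 77.9% of the coding words of Rps12, so the reads of these entries cannot be fully told apart. Each of these genes was lower in all 5 anti-PD-1 libraries than in all 4 isotype libraries.

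Other members of this set lay on both sides of 0. Of the 84, 74 were below 0, against 59.4% of all genes, with a median of -0.46 against -0.15, and 22 were lower without overlap, against 4.43%. None was higher without overlap, against 2.06%. At an unadjusted p under 0.05, 35 were lower, against 6.72% of genes, and 0 higher, against 3.56%. Rps4x (-1.10, adjusted p = 0.055), Rplp0 (-0.95, adjusted p = 0.075) and Rpl5 (-1.16, adjusted p = 0.088) did not pass. The Rpl5 entry held 4.03% of its family's TPM in this set. Summed with its copies, Rpl5 had means of 2939 TPM with anti-PD-1 and 5595 TPM with isotype. Rps19, among the clearest falls in CD8+ cells, stood at 0.17 (SE 0.27, adjusted p = 0.91) and Rpl11 at 0.38 (adjusted p = 0.80). The Rpl11 entry held 31.5% of its family's TPM here, and the family's means were 1577 TPM with anti-PD-1 and 1945 TPM with isotype. The 20 members with the longest coding sequence, 633 to 1257 bases, had a median of -0.78, and the 20 shortest, 138 to 384 bases, a median of -0.34. In the CD8 set these medians were -0.78 and -0.75. Called lower there were 10 of the 20 longest and 4 of the 20 shortest, against 19.4% of all genes. In the bulk tumour set 3 of the longest and 2 of the shortest were called, against 0.21% of all genes.

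The TPM of the long members over that of the short ones was 0.60 in T-023, against 0.82 to 0.91 in the other 4 libraries of its group and 0.93 to 0.97 with isotype. In the same set, endothelial markers summed to 1757 to 5831 TPM with anti-PD-1 and 816 to 1432 TPM with isotype, and macrophage and monocyte markers to 65.8 to 151 TPM and 54.9 to 453 TPM, in the CZA+DAV132 arm. T cell markers summed to 4667 to 13450 TPM and 7830 to 12853 TPM. Over the whole set the 6 endothelial markers summed to 564 to 5831 TPM and Pecam1 alone held 562 to 5830 TPM, so that sum reads mainly Pecam1. The part of these markers in the result was not tested. Without T-023 and T-026 no member was called by limma (adjusted p of Rpl4 0.069, log2 change -1.24), and the median was -0.18 against 0.09 for all genes.

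The number of calls in this set was small enough to move with single libraries. Leaving out T-022, T-024 or T-027, each of the isotype group, gave 0 calls, and leaving out T-021, T-023 or T-028 gave 1. Without T-029 there were 13, against 0.854% of genes called lower. Leaving the CZA groups out of the model gave 0 (0.03% of genes), no filter gave 2 (0.0635%), and rescaling without repeat and mitochondrial entries gave 11 (0.296%).

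The sets had no library in common: per the labels, the sorted cells came from a repeat of the experiment, with the same FMT material. Rpl3, Rpl4, Rpl6 and Rpl41 were called lower in both, which is 13.8% of the 29 calls of the CD8 set and 66.7% of the 6 calls of the other. Of all 12126 genes tested in both sets, 2445 were called lower in the CD8 set, 27 in the other, and 24 (0.198%) in both. Of the bulk tumour calls, the shared part was thus smaller among the members, 4 of 6, than among all genes, 24 of 27. Of the CD8 calls it was larger, 4 of 29 against 24 of 2445. Without overlap between groups in both sets were 16 members, 47.1% of 34 and 72.7% of 22, among them Rplp0, Rpl8, Rpl9, Rpl19, Rpl35, Rps4x and Rps7. Of the genes tested in both, 1540 were lower without overlap in the CD8 set, 583 in the other, and 257 (2.12%) in both. Across the 84 members the changes in the sets had a Pearson r of 0.34 and a Spearman rho of 0.50, and 73 of the 84 were below 0 in both, against 53.6% of genes, as a description over genes that share libraries.

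**Figure D4:**
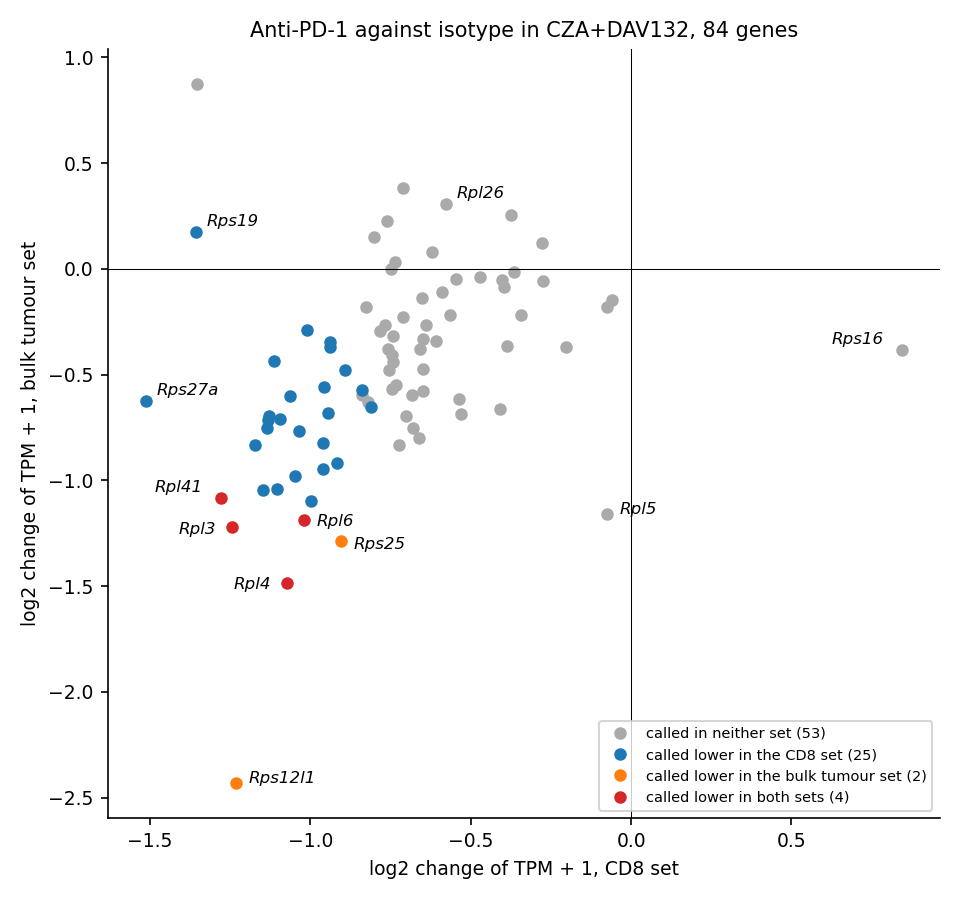
Log2 change of TPM + 1 with anti-PD-1 against isotype in the CZA+DAV132 arm for the 84 genes, in the sorted set (horizontal axis) and in the libraries labelled bulk tumour (vertical axis). Colours give the limma calls, and 4 genes, Rpl3, Rpl4, Rpl6 and Rpl41, are called in both; Rps19 is far left but above 0 on the vertical axis, and Rps16 is the point on the right.

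In the CZA arm no member was called with anti-PD-1 in either set by limma, where 0.0155% of genes were called higher in the CD8 set, and 0.278% higher and 0.0075% lower in the other. In the CD8 set 0 members had an unadjusted p under 0.05, against 3.14% of genes lower and 1.96% higher at that level, and the members' median was -0.06. None lay apart without overlap there, against 0.44% of genes lower and 1.15% higher. In the bulk tumour set 3 were lower and 4 higher at an unadjusted p under 0.05, against 2.09% and 11.0% of genes. The higher members were thus a smaller share than among all genes, and the members' median was 0.02 against 0.25 for all genes. Rpl26, a large subunit protein at the tunnel exit that also binds p53 messenger RNA, had 1685, 1692, 1311, 1413 and 1635 TPM with isotype and 2182, 2700, 2070, 4541 and 3227 TPM with anti-PD-1. These groups did not overlap, as for 2 members in each direction, against 2.09% of genes higher and 0.308% lower. For the members higher, this is a share near the background. The Rpl26 change of 0.87 (SE 0.28) had an adjusted p of 0.18. Rpl41 stood at -0.55 (adjusted p = 0.23) and Rpl3 at -0.57 (adjusted p = 0.31).

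The comparisons of CZA+DAV132 with CZA gave no call among the members. Under isotype the medians were 0.16 in the CD8 set, with 1 member, Rpl6l, lower at an unadjusted p under 0.05 (1.8% of all genes) and 0 higher (0.672%), and 0.10 in the other set, with 0 members in either direction (1.88% of genes lower and 9.03% higher). At an adjusted p under 0.05, 0.113% of genes were higher in the latter. Under anti-PD-1, with the same anti-PD-1 libraries as above, 31 CD8 members were lower at an unadjusted p under 0.05, against 30.5% of all genes, a share near the background, and 0 were higher, against 2.98%. At an adjusted p under 0.05, 0.0386% of genes were lower. There, 83 members were below 0, against 82.4% of genes, and 5 were lower without overlap, against 2.58%. Rps19 had the smallest adjusted p there, 0.068, with a change of -1.02. In the bulk tumour set 30 were lower and 1 higher at an unadjusted p under 0.05, against 5.57% and 2.01% of genes. There, 13 were lower without overlap, against 1.91%. Rpl6 stood at -1.05 (adjusted p = 0.084), Rpl4 at -1.16 (adjusted p = 0.10) and Rpl5 at -1.35 (adjusted p = 0.10). The Rpl5 entry held 4.03% of its family's TPM there, and the family's means were 2939 TPM in CZA+DAV132 and 5073 TPM in CZA.

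Whether the antibody effect differed between the FMT arms was tested as an interaction, and no member passed with limma. In the CD8 set 20 members had an unadjusted p under 0.05, all lower (12.1% of genes lower, 3.66% higher), with Rpl34 at -1.10, Rpl41 at -1.12 and Rpl35 at -1.03 (adjusted p = 0.29 each). In the other set 17 did, all lower (9.12% of genes lower, 1.2% higher, and 0.045% lower at an adjusted p under 0.05). Rpl5 stood at -1.73 (SE 0.39, adjusted p = 0.18) and Rpl6 at -1.06 (adjusted p = 0.29). The Rpl5 entry held 4.03% of its family's TPM in that set. Summed with its copies, Rpl5 had means of 5073 TPM with anti-PD-1 and 6050 TPM with isotype in the CZA arm. In the CZA+DAV132 arm these means were 2939 and 5595 TPM. The falls in the CZA+DAV132 arm were therefore not shown to differ from the changes in the CZA arm.

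Genes that work with the ribosome were counted beside its proteins in the CZA+DAV132 arm. In CD8+ cells, where 19.4% of all genes were called lower and 4.12% higher, 6 of 9 elongation factors (66.7%) were lower with anti-PD-1, among them Eef1b2 (-1.19, adjusted p = 0.0085), an exchange factor of eEF1A, and Eif5a (-1.68, adjusted p = 0.0061), which helps stalled ribosomes. Of 29 initiation factors 15 (51.7%) were lower, with Eif1, which guards start codon choice, at -1.57 (adjusted p = 0.0059) and Eif2s1 at -1.42 (adjusted p = 0.0059). Of 44 ribosome biogenesis genes 15 (34.1%) were lower, with Nop16 at -1.43 (adjusted p = 0.0067), and of 20 RNA polymerase I genes 9 (45%) were. Of 19 genes of mTORC1 and TOP message control 4 (21.1%) were lower and 1 higher, shares near those of all genes, with Eif4ebp1, an mTORC1 substrate, at -1.54 (adjusted p = 0.0077). Larp1 stood at -0.10 (adjusted p = 0.75) and Myc at -0.55 (adjusted p = 0.27).

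In the bulk tumour set, where 0.21% of all genes were called lower, 3 of 9 elongation factors were lower: Eef1b2 (-1.28, adjusted p = 0.018), Eif5a (-1.55, adjusted p = 0.033) and Eef1a1 (-1.11, adjusted p = 0.049). Of 29 initiation factors Eif4a1, the helicase of the cap complex, was the one lower (-1.36, adjusted p = 0.048). No gene of the biogenesis, RNA polymerase I or mTORC1 lists was called there. Ribosomal proteins whose names fall outside the numbered series were also read in the CD8 set: Rpl36al was lower (-1.17, adjusted p = 0.010), while Fau stood at -0.04 (adjusted p = 0.93) and Rack1 at -0.36 (adjusted p = 0.42).

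**Figure D5:**
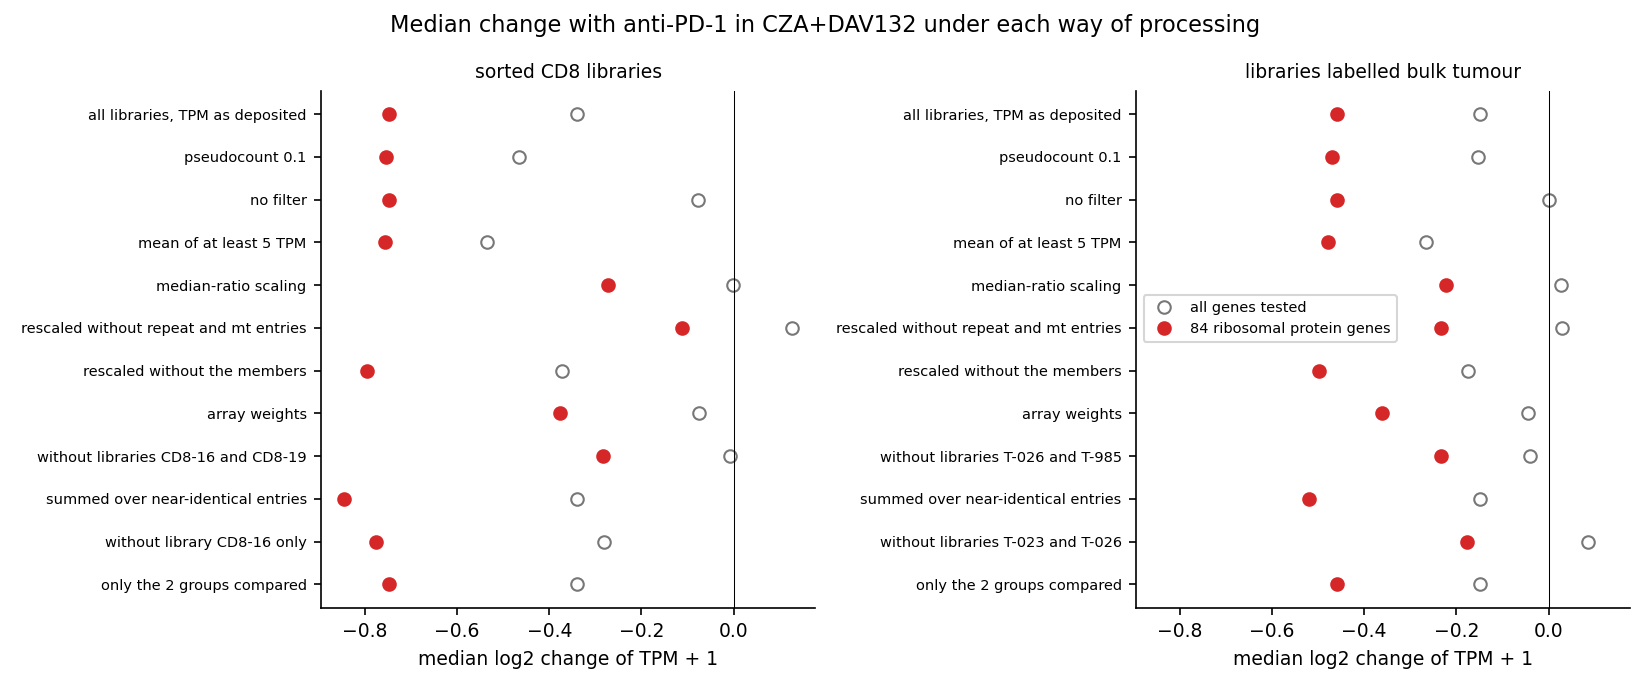
Median log2 change with anti-PD-1 in CZA+DAV132 of the ribosomal protein genes (red) and of all genes tested (grey circles) under each way of processing. The CD8 set is on the left and the libraries labelled bulk tumour on the right. The main setting holds 84 ribosomal protein genes, and a stricter filter or summed copies can hold fewer. The red points lie left of the grey ones in each row, and both move towards 0 when repeat and mitochondrial entries are taken out (-0.11 and -0.23 for the members).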

How the data were processed

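Total RNA was depleted of rRNA and made into directional libraries, per the labels' protocols. The authors deposited TPM values, 1 table per set. The submitters' processing notes name kallisto 0.45 and GRCm38; the annotation is not given in the sources used here, and depth is unknown because TPM holds no counts. Symbols were matched to GENCODE M21 (27787 of 28023 rows), and coding sequences were compared by 31-base words. From the deposited TPM, genes reaching 1 TPM in 4 or more libraries (all 84 members, 12942 and 13326 genes) were tested on log2(TPM + 1) with limma 3.58.1 in R 4.3.3, with 4 group means, a mean-variance trend and Benjamini-Hochberg adjustment over all genes. The log2 changes understate those of low genes. All tests were two-sided, with 5 contrasts per set. Nothing in the labels states that libraries came from separate mice, so p-values measure the spread between libraries. The method was tested on simulated data. The members, gene lists, alternatives and rule for naming genes were chosen with earlier results of these data known. The rule took the highest members, the 5 largest called changes in each comparison, else the 3 of smallest p, and a set of genes by role; the text describes part of them, and Rpl8, Rpl19, Rpl23a, Rps7, Rpl7l1, Eef1b2 and Larp1 were named after their values were seen. A few genes are not reported by name here. Repeat entries (19) had at least 40% of their 15-base words in satellite or simple repeats and a mean of at least 20 TPM. The rescaling took out these and 13 mitochondrial entries; small RNAs were to be left out too, but 0 such entries are listed. Listed TPM sums to less than the full scale, so shares after it are of the listed TPM left.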

Additional observations from a re-analysis of the deposited data

Results flagged for a closer look

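Each group of 4 or 5 libraries was examined for 5 summaries and 12 members, 136 checks in all. In 6 of these checks a library lay far from the rest by Dixon's criterion. Chance gives about 1 in 20, so 6 of 136 is no more than chance gives. CD8-19 had the lowest summed share of the members, of the listed TPM left without repeat and mitochondrial entries, in CZA+DAV132 with anti-PD-1, 8.36% against 12.2% to 13.5%. It was also lowest in that group for Rps27a, 160 TPM against 555 to 661 TPM.

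The TPM of the 20 longest members over that of the 20 shortest was 0.60 in T-023, against 0.82 to 0.91 in the other libraries of CZA+DAV132 with anti-PD-1. In the CD8 set it was 0.63 in CD8-8, against 0.72 to 0.74 in the other libraries of CZA with anti-PD-1. Among CZA+DAV132 isotype libraries, Rpl6 was 1055 TPM in CD8-13 against 887 to 912 TPM, and Rpl3 was 1010 TPM in T-022 against 1290 to 1311 TPM.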

How the results depend on the processing

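For anti-PD-1 in CZA+DAV132, the CD8 count of 29 lower members fell to 10 without CD8-16 and CD8-19 (5.2% of all genes were then called lower), 17 without CD8-16 (11.5%) and 3 with the CZA groups left out of the model (6.6%), and ranged from 17 to 53 (11.5% and 29.8%) with a library left out. The bulk tumour count of 6 was 2 with no filter (0.0635% of genes), 10 with median-ratio scaling (0.242%), 11 rescaled without repeat and mitochondrial entries (0.296%), 16 with array weights (1.32%), 10 summed over copies (0.216%), 3 without T-026 and T-985 (0.0839%), 0 without T-023 and T-026, 0 with the CZA groups left out, and 0 to 13 with a library left out. The cause was not tested. For CZA+DAV132 against CZA under anti-PD-1, the CD8 count of 0 became 9 with a mean of at least 5 TPM (17.5% of genes), 3 with array weights (3.69%) and 0 to 29 with a library left out (29.2% at the highest), and the bulk tumour count became 3 with array weights and 0 to 2. Anti-PD-1 in CZA gave 1 call in the bulk tumour set with median-ratio scaling and 1 rescaled without repeat and mitochondrial entries. For the bulk tumour counts of both these comparisons, no share of all genes called is given here. They are therefore not read as a result about the members. Summing copies turned Rps16 in the CD8 set to -0.90. Summing copies, leaving out CD8-16 alone and leaving out T-023 with T-026 were chosen after the data were seen.

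The summed share, in CZA isotype, CZA anti-PD-1, CZA+DAV132 isotype and CZA+DAV132 anti-PD-1, was 15.2%, 14.6%, 16.7% and 10.4% (CD8) and 16.9%, 17.4%, 18.3% and 13.9% (bulk tumour) with entries that share coding words. Without repeat and mitochondrial entries it was 12.6%, 13.4% and 12.0% in the last 3 CD8 groups and 14.1% in CZA isotype of the bulk tumour set. With entries named as pseudogenes it was 12.0% and 13.8% in CD8 CZA anti-PD-1 and CZA+DAV132 isotype, and 14.0% in bulk tumour CZA isotype. No paired analysis was possible because each library has a replicate number of its own. Of 296 counts and shares under alternatives, 14 shares moved by over 1 SD, 16 counts rose, 15 counts fell, and 251 stayed close to the value reported. Of 225 medians of the members 16 moved by over the SD among members, and of 1840 changes of single genes 52 newly passed the test, 66 no longer did, 1 reversed and 1721 kept their side of the threshold. Depth cannot be given for TPM.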
